A study of Homo sapiens with 4 samples.

Results

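The genes described here are 10 members of the IL6 cytokine pathway, taken by symbol from the 39323 genes of the deposited tables: the ligands IL6, LIF and IL11, the receptor chains IL6R, IL6ST, LIFR, OSMR and CNTFR, the transcription factor STAT3 and its feedback inhibitor SOCS3. All 10 were found in the tables, and all 10 had a mean of at least 1 TPM (a level corrected for transcript length and scaled to a fixed total per library) over the libraries, as did 12985 genes in all. CNTFR reached that mean through RD cells alone, and IL6 through the libraries of the control hairpin alone. Levels were measured in RD and JR1, a pair of established lines of fusion-negative rhabdomyosarcoma, a childhood tumor of the skeletal muscle lineage, and both lines carry mutated p53. Cells of each line had been infected with a lentivirus that carried either shSKP2.2, a hairpin against SKP2, or shSCR, a non-targeting control hairpin. SKP2 is the substrate-binding subunit of an SCF ubiquitin ligase. All cells had therefore received a vector, grew in medium with serum and had been selected with puromycin. There was 1 library for each line and hairpin, 4 in all, so no difference between conditions has a replicate check, and the effect of SKP2 loss and other effects of this single hairpin or of the control vector cannot be told apart.

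Cytokines of the IL6 family share the signal-transducing chain gp130, encoded by IL6ST. IL6 and IL11 first bind receptors of their own, IL6R and IL11RA, and then join gp130 pairs, whereas LIF signals through a complex of gp130 with LIFR, oncostatin M through gp130 with OSMR or LIFR, and CNTF through CNTFR, LIFR and gp130. Janus kinases bound to these chains phosphorylate STAT3, which enters the nucleus and switches on its targets, among them SOCS3, whose product binds gp130 and shuts the signal down. In skeletal muscle, IL6 is released by contracting fibers and LIF is known for its effect on the proliferation of myoblasts.

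The targeted transcript SKP2 fell in RD from 92.8 to 7.40 TPM and in JR1 from 46.5 to 2.72 TPM. Short structural RNAs made up 58.6% of all TPM in the RD control and 69.0% with shSKP2.2, and 66.5% and 72.1% in JR1. The median log2 change of all 12985 genes, taken between shSKP2.2 and shSCR on the TPM + 1 scale, was -0.27 in RD and -0.21 in JR1, so changes of the members are also given relative to these medians. Without the short structural RNA genes, and with the remaining TPM rescaled, 15228 genes passed the filter, and their median was 0.12 for RD and 0.01 for JR1. Since 1 was added, changes of low genes are drawn toward 0. Of 8 markers of the muscle lineage, 7 were at 1 TPM or more in all 4 libraries (MYF5 was listed at 0), and their summed level was higher with shSKP2.2, at 581 TPM against 420 TPM for RD and 831 TPM against 615 TPM for JR1. CHRNA1, a subunit of the acetylcholine receptor, held the largest share of that sum (196.34 and 313.84 TPM in RD, 284.19 and 424.83 TPM in JR1), while CHRND was lower in both lines (-0.76 and -0.60) and DES was lower in JR1 (-0.50). Markers of leukocytes stayed at or below 0.87 TPM and those of endothelium at or below 0.38 TPM, and of 4 epithelial markers KRT8 alone was above 1 TPM (at most 9.06). Whether the members moved with the muscle genes was not tested, and in these bulk libraries fewer cells of a kind and less RNA per cell cannot be told apart. The summed leukocyte level ranged from 0.26 to 1.20 TPM and the summed endothelial level from 0.14 to 0.45 TPM.

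With shSKP2.2, 9 of the 10 members were lower in RD and all 10 were lower in JR1, where 75.0% and 68.9% of all tested genes were lower. The same 9 were lower in both lines, against 61.1% of all genes, and IL6R in RD was the exception. Without CNTFR, which was below 1 TPM in both JR1 libraries, 8 of 9 members were lower in RD and 9 of 9 in JR1. By the limit used here, a log2 change of at least 1 in either direction, 4 of the 10 fell in RD (IL6, LIF, IL6ST and OSMR), where 7.37% of all genes fell. In JR1 these 4 and SOCS3 fell, against 9.05% of all genes. The 4 genes that fell in both lines compare with 4.79% of all genes, and no member rose in either line. The members were chosen with earlier results of these data known, so the shares of all genes give context and are not a test. The median log2 change of the members was -0.82 in RD (-0.55 once the median of all genes was subtracted) and -1.15 in JR1 (-0.94), and without CNTFR it was -0.93 and -1.36. With the TPM rescaled without short structural RNAs, 3 members (IL6, LIF and IL6ST) fell in RD and 5 in JR1, where 3.47% and 7.51% of the 15228 genes did. On that scale 8 members were lower in RD, with STAT3 and IL6R above 0, and 10 in JR1, against 39.4% and 49.0% of the genes.

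Of the ligands, IL6, the founding cytokine of the family and a driver of the acute-phase response, had the largest change of the 10 members in both lines. It was at 7.28 TPM in RD shSCR, 0.36 TPM in RD shSKP2.2, 8.18 TPM in JR1 shSCR and 0.55 TPM in JR1 shSKP2.2. Both shSCR libraries were thus above 7 TPM and both shSKP2.2 libraries below 1 TPM. The TPM of the control was 20.2 times that of shSKP2.2 in RD and 14.9 times in JR1. These ratios rest on shSKP2.2 values below 1 TPM, whose precision is unknown. The log2 change came to -2.61 for RD and -2.57 for JR1, or -2.34 and -2.35 relative to the median of all genes. By rank, 0.208% of all tested genes had a lower change in RD and 0.370% in JR1. Since IL6 passed the filter on the mean through the shSCR libraries alone, it had to be lower with shSKP2.2 on average. The ranks are therefore given as a description. Without short structural RNAs the change of IL6 was -3.10 in both lines.

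LIF (chr22:30240453-30257487 in GRCh38, as the tables give it), a cytokine that keeps stem cells and myoblasts proliferating, was at 1.99 TPM in RD shSCR and 0.36 TPM in RD shSKP2.2. In JR1 it was at 13.38 TPM in shSCR and 3.33 TPM in shSKP2.2. It was lower with shSKP2.2 in each line, but JR1 shSKP2.2 still lay above both RD libraries. Its log2 change came to -1.14 for RD and -1.73 for JR1. Relative to the median of all genes the change in RD was -0.87 and no longer passed the limit, whereas that in JR1 was -1.52.

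IL11 (chr19:55364382-55370463), a cytokine of the stroma that acts on platelet precursors and fibroblasts, went in RD from 2.63 to 1.46 TPM and in JR1 from 10.52 to 4.96 TPM. Its log2 changes, -0.56 in RD and -0.95 in JR1, did not reach the limit and were -0.29 and -0.74 relative to the median. With 0.1 TPM added in place of 1, the change in JR1 was -1.07 and passed it. The TPM of the 3 ligands summed to 11.9 in the RD control and 2.18 with shSKP2.2, and to 32.1 and 8.84 in JR1.

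The sequence before the start of IL6 is shown because IL6 changed most, with matches to short motifs in capitals. The motifs, searched on both strands in the 250 bases before each RefSeq start, were TTCNNNGAA (STAT), GGNNTTTCC (NF-kB), TTNNGNAA (C/EBP) and TGANTCA (AP-1). The sequences are from RefSeq, build GRCh38.p14. The window of IL6 is chr7:22726950-22727199, plus strand:
IL6: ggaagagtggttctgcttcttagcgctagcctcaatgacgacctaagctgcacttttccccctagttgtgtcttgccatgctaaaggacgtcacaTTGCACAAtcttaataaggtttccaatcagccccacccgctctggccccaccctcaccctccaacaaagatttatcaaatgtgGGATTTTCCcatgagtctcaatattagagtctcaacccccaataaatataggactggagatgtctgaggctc

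The first match in capitals is TTGCACAA (C/EBP), whose first base lies at -155, and the second is GGATTTTCC (NF-kB) at -72, both counted from the start site. The NF-kB letters were found in 5.48% of the 35116 promoter windows of all genes and, among the 12 windows of the 9 matched members, only in that of IL6. The C/EBP letters are common, in 33.2% of all windows, and stood in 6 of the 12. The STAT letters, in 6.57% of all windows, stood in 2 windows of LIFR, and the AP-1 letters, in 6.57%, in that of IL11. The matches printed in capitals do not overlap each other. A match describes the letters and is not evidence of binding. The IL6 gene of the tables (chr7:22725889-22732002) starts before this RefSeq start.

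Of the receptors, IL6ST (chr5:55935095-55994963), the gp130 chain that the complexes described above share, had the largest change. It was at 5.76 TPM in RD shSCR, 1.22 TPM in RD shSKP2.2, 6.38 TPM in JR1 shSCR and 1.08 TPM in JR1 shSKP2.2. The levels of the lines lay close together in each condition, and the shSKP2.2 libraries were far below the controls. The log2 change came to -1.61 for RD and -1.83 for JR1, or -1.34 and -1.61 relative to the median of all genes, and -1.59 and -2.04 without short structural RNAs.

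OSMR, the signalling chain for oncostatin M, was at 19.12 TPM in RD shSCR, 8.90 TPM in RD shSKP2.2, 24.0 TPM in JR1 shSCR and 7.74 TPM in JR1 shSKP2.2. It too was at a like level in both lines and lower with shSKP2.2. The log2 change was -1.02 in RD against -1.52 in JR1. The fall in RD rested on the scale, since the change was -0.75 relative to the median and -0.67 without short structural RNAs, while in JR1 it was -1.30 and -1.34.

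The windows before IL6ST (chr5:55994964-55995213, minus strand) and OSMR (chr5:38845762-38846011, plus strand) are shown because these are the receptor chains that fell in both lines. Capitals mark the same motifs as for IL6:
IL6ST: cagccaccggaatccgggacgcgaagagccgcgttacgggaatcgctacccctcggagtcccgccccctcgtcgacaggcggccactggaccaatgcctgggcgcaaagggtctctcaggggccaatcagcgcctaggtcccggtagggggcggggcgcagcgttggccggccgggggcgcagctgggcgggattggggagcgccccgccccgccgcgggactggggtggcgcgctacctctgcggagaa
OSMR: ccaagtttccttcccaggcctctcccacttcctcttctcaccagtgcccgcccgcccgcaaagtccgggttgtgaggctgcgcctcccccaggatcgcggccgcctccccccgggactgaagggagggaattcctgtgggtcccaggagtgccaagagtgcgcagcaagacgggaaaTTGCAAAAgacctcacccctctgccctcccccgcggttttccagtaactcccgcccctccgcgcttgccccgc

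None of the 4 motifs was found in the window of IL6ST, and that of OSMR held a single C/EBP match, TTGCAAAA at -73. The GC content was 73.6% for IL6ST and 66.4% for OSMR, against 47.6% for IL6.

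LIFR, the chain that LIF and CNTF share, went in RD from 19.96 to 11.82 TPM and in JR1 from 5.66 to 3.53 TPM. Its log2 change came to -0.71 for RD and -0.56 for JR1, which was -0.44 and -0.34 relative to the median. LIFR lies next to OSMR on chromosome 5, with 239.7 kb between the genes as the tables place them (chr5:38474668-38606290 and chr5:38846012-38945579), and in each line its change was smaller than that of OSMR.

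IL6R (chr1:154405343-154469450), the receptor chain that binds IL6 itself, was at 3.25 TPM in RD shSCR, 3.38 TPM in RD shSKP2.2, 5.70 TPM in JR1 shSCR and 3.78 TPM in JR1 shSKP2.2. Its log2 change came to 0.04 for RD and -0.49 for JR1, or 0.31 and -0.27 relative to the median. CNTFR (chr9:34551432-34590386), the binding chain for CNTF, went from 13.25 to 7.95 TPM in RD, a change of -0.67 or, relative to the median, -0.40. In JR1 CNTFR was at 0.53 TPM in shSCR and 0.24 TPM in shSKP2.2, too low for a change to be read.

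The balance between the chains can be compared within a library, where the scaling of TPM does not enter. The TPM of IL6R was 0.564 times that of IL6ST in RD shSCR and 2.77 times in RD shSKP2.2, and 0.893 and 3.50 times in JR1. IL6R was therefore below IL6ST in both controls and above it in both shSKP2.2 libraries. In the JR1 control the gap was small, and with 1 library it cannot be separated from the spread between cultures. The shift restates the fall of IL6ST described above, to 1.22 TPM in RD and 1.08 TPM in JR1. OSMR was at 3.32 times the TPM of IL6ST in RD shSCR and 7.30 times in RD shSKP2.2, and at 3.76 and 7.17 times in JR1. With shSKP2.2, IL6ST had the lowest TPM of the receptor chains among the members in RD and the second lowest, above CNTFR, in JR1.

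Of the factors after the receptor, STAT3 (chr17:42313324-42388502), which carries the signal to the nucleus, had the highest TPM of the 10 genes in all 4 libraries. It was at 43.14 TPM in RD shSCR, 34.14 TPM in RD shSKP2.2, 51.76 TPM in JR1 shSCR and 35.24 TPM in JR1 shSKP2.2. Its log2 change, -0.33 for RD and -0.54 for JR1, was -0.06 and -0.33 relative to the median of all genes, and 0.08 and -0.29 without short structural RNAs. These are levels of the transcript of the whole gene, and phosphorylated STAT3 was not measured here.

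SOCS3 (chr17:78356778-78360925), the inhibitor that STAT3 induces, was second in TPM in all 4 libraries. It was at 41.59 TPM in RD shSCR, 21.29 TPM in RD shSKP2.2, 40.09 TPM in JR1 shSCR and 15.04 TPM in JR1 shSKP2.2. The controls of the lines lay close together, and both shSKP2.2 libraries were lower. The log2 change was -0.93 in RD, just short of the limit, and -1.36 in JR1, or -0.66 and -1.14 relative to the median.

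**Figure D1:**
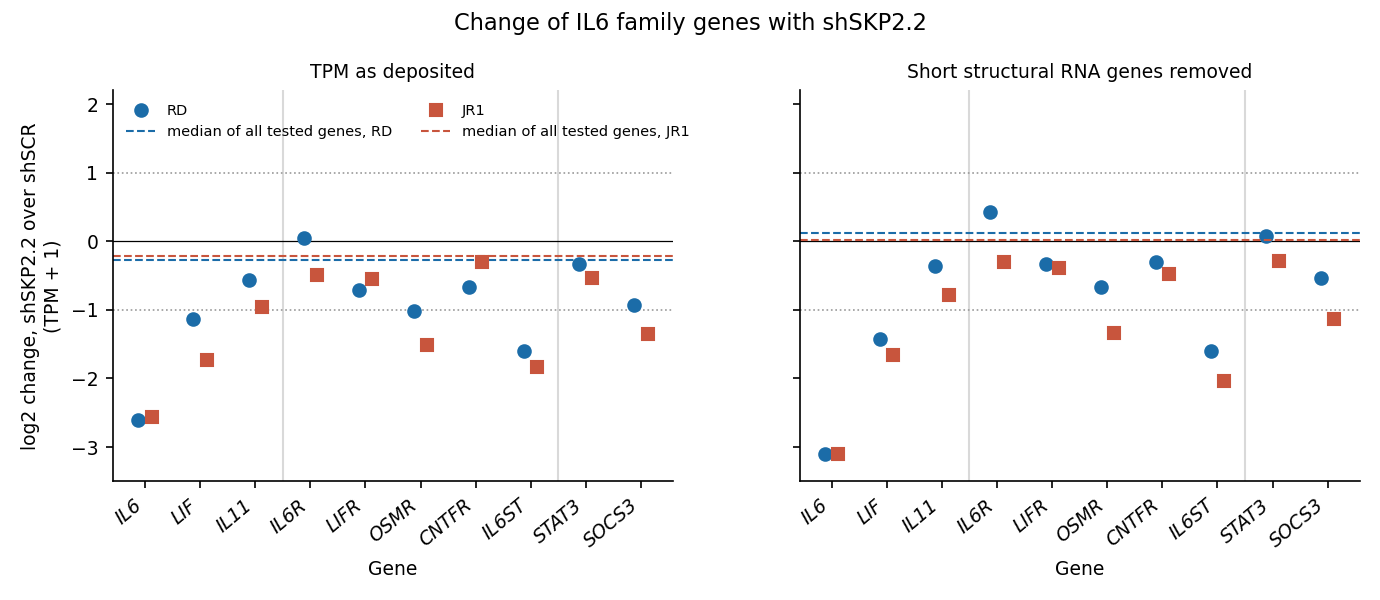
log2 change of the 10 genes, shSKP2.2 over shSCR on the TPM + 1 scale, in RD (circles) and JR1 (squares), with the TPM as deposited (left) and without short structural RNAs (right); dashed lines are the medians of all tested genes and dotted lines the limits at 1 and -1. IL6 is lowest in both panels, at -2.61 in RD and -2.57 in JR1 on the left, followed by IL6ST, while IL6R in RD is above 0 in both.

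In the control condition the lines differed in the levels of some ligands and receptors. In shSCR, CNTFR and LIFR were higher in RD by at least 1 on the log2 scale, as 6.50% of all genes were, and LIF and IL11 were lower in RD by as much, as 3.45% were. With shSKP2.2 the same 4 genes passed the limit in the same directions, where 5.39% of all genes were higher and 2.70% lower in RD. The log2 difference of RD over JR1 was 3.22 for CNTFR with shSCR and 2.85 with shSKP2.2. CNTFR passed the filter on the mean through RD alone, so it had to differ between the lines.

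The log2 difference of LIFR was 1.65 with shSCR. For the ligands the order was the reverse, with -2.27 and -1.67 for LIF and -1.67 and -1.28 for IL11. RD thus held more transcript of LIFR and CNTFR and JR1 more of LIF and IL11 in both conditions. IL6, IL6ST, OSMR, STAT3 and SOCS3 differed between the lines by less than 0.5 on this scale in either condition with the TPM as deposited, although the direction turned for SOCS3 with shSCR and for IL6ST with shSKP2.2 when the differences were centred on the median of all genes. The difference of IL6R was -0.66 with shSCR and -0.13 with shSKP2.2. Without short structural RNAs, IL6R with shSCR was at -1.03 and passed the limit.

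In the order of TPM within RD shSCR, STAT3 and SOCS3 were followed by LIFR, OSMR, CNTFR, IL6, IL6ST, IL6R, IL11 and LIF. In JR1 shSCR they were followed by OSMR, LIF, IL11, IL6, IL6ST, IL6R, LIFR and CNTFR. With shSKP2.2, IL6 and LIF, both at 0.36 TPM, were the lowest in RD, and IL6 and CNTFR in JR1. With 1 library each, neighbours in these orders cannot be separated from the spread between cultures, which is unknown.

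Beyond the members, 53 other genes of the pathway were looked up in 6 lists, and 43 had a mean of at least 1 TPM. These lists too were chosen with earlier results of these data known. In RD 5 of the 43 fell and 36 were lower, and in JR1 15 fell and 33 were lower, to be read against the 7.37% and 9.05% of all genes that fell and the 75.0% and 68.9% that were lower. Centred on the median, 4 fell in RD and 9 in JR1, where 3.53% and 5.47% of all genes fell. On the deposited scale none rose by the limit in either line, where 1.08% of all genes rose in RD and 1.78% in JR1. Without short structural RNAs 4 fell and 2 rose in RD, against 3.47% and 4.45% of the 15228 genes. In JR1 11 fell and 1 rose on that scale, against 7.51% and 4.91%. Their median log2 change was -0.35 in RD (-0.08 after centring) and -0.48 in JR1 (-0.27). On the deposited scale the genes that fell in both lines were FOS, JUNB, CCND1, STAT2 and STAT6.

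Other ligands were mostly low. OSM, IL27, EBI3 and IL31 did not reach the mean of 1 TPM. The 3 that did were lower in both lines, none past the limit, with CTF1 lowest in RD (-0.48) and CLCF1 lowest in JR1 (-0.59). CLCF1, which also signals through CNTFR, was highest in RD (-0.03) and CNTF in JR1 (-0.46), and the medians of the 3 were -0.29 and -0.50. Of 5 other receptors and sheddases, which release soluble IL6R from the membrane, none fell in RD and IL11RA fell in JR1. IL11RA, the receptor of IL11, went in RD from 5.15 to 2.72 TPM (-0.73) and in JR1 from 5.51 to 1.96 TPM (-1.14). Relative to the median its change in JR1 was -0.92 and did not pass the limit. The lowest in RD was IL27RA, another receptor that pairs with gp130, at -0.82, and the medians over the 5 genes were -0.35 and -0.26. The highest value in both lines was that of IL31RA, at 0.41 and -0.01, but IL31RA passed the filter through JR1 alone (2.95 and 2.92 TPM) and was at 0.06 and 0.41 TPM in RD, too low for a change to be read.

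The kinases, phosphatase and adaptors that relay the signal gave no call. None of the 6 passed the limit in either line, and their median was -0.12 in RD and -0.22 in JR1. JAK1, the main kinase on gp130, was the lowest of them in JR1, where it went from 43.84 to 28.67 TPM (-0.60), and TYK2 in RD, from 30.66 to 21.52 TPM (-0.49). The highest were GRB2 in RD (0.12) and GAB1 in JR1 (0.22), both adaptors to the RAS pathway.

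Of the other STAT factors, STAT4 and STAT5A did not reach the mean of 1 TPM, and STAT2 and STAT6 fell in both lines. STAT2, which serves type I interferon signals, went in RD from 39.59 to 13.94 TPM (-1.44) and in JR1 from 57.96 to 16.63 TPM (-1.74). STAT6, which serves IL4 and IL13, went in RD from 58.38 to 25.96 TPM (-1.14) and in JR1 from 52.85 to 25.40 TPM (-1.03). Relative to the median of all genes STAT6 was at -0.87 and -0.81, and without short structural RNAs at -0.74 and -0.79, and on neither scale did it pass the limit. STAT5B was the highest of the list, at -0.10 in RD and 0.05 in JR1, so STAT3 lay between STAT5B and the pair STAT2 and STAT6 in both lines.

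Of 7 other negative regulators none fell in RD, and SOCS2 fell in JR1, from 7.72 to 3.22 TPM (-1.05), which was -0.83 relative to the median. The median of the 7 was -0.41 in RD and -0.10 in JR1. SOCS1, a relative of SOCS3 induced by interferons, was lowest in RD, from 18.69 to 11.89 TPM (-0.61). The highest were the phosphatase gene PTPN1 in RD (0.25) and PIAS1 in JR1 (0.46). PTPN6, a phosphatase gene of blood cells, did not reach the mean of 1 TPM.

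Among 18 tested genes known as targets of STAT3 after IL6 family cytokines, 3 fell in RD and 10 in JR1, where 7.37% and 9.05% of all genes fell. In JR1, 7 fell after centring and 8 without short structural RNAs, where 5.47% and 7.51% of the genes kept on those scales fell. The median of the 18 came to -0.39 for RD and -1.11 for JR1 (-0.12 and -0.90 relative to all genes). FOS, an immediate early subunit of AP-1, was the lowest in both lines, in RD from 93.54 to 24.38 TPM (-1.90) and in JR1 from 109.8 to 24.11 TPM (-2.14). JUNB, its partner, went in RD from 84.33 to 26.37 TPM (-1.64) and in JR1 from 107.25 to 30.86 TPM (-1.76), and CCND1, the cyclin of the G1 phase, from 55.15 to 16.58 TPM (-1.68) and from 106.66 to 29.40 TPM (-1.82). These genes answer to serum and growth factors as well as to STAT3. In the other direction A2M, a protease inhibitor of plasma, was highest in RD (0.98, from 0.25 to 1.46 TPM). A2M was below 1 TPM in RD shSCR, so the precision of that change is unknown. In JR1 the highest was BCL2L1, which encodes a survival factor (0.80, from 47.08 to 82.49 TPM). SERPINA3 and LBP, acute-phase genes of the liver, did not reach the mean of 1 TPM.

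The tables also hold 8 genes named as antisense or divergent neighbours of a member, and 7 of them overlap it by their coordinates. The library kit keeps the strand, but whether strand was used in counting is not given in the sources used here, so reads of a member and of its antisense gene may be mixed. The levels of these neighbours were low, at most 1.24 TPM, in LIF-AS2 with JR1 shSCR. LIF-AS2 went in RD from 0.55 to 0.08 TPM and in JR1 from 1.24 to 0.07 TPM. IL6-AS1, which overlaps the start of IL6 in the tables, was at 0.32 TPM or less in each library.

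The genes whose levels over the 4 libraries were most like those of IL6 were RAB31, FOSB and TGFBI, at distances of 0.24, 0.29 and 0.35 between centred log2(TPM + 1) profiles. FOSB, another AP-1 subunit, went in RD from 30.51 to 5.27 TPM and in JR1 from 42.82 to 6.62 TPM. CNTFR was most like ROR2 (0.10), SNORA93 (0.37) and PTN (0.43), which are above 4 TPM in the RD libraries and below 1 TPM in those of JR1. LIF was most like ITGA7 (0.37), COL2A1 (0.47) and EDNRA (0.50). ITGA7, the muscle laminin receptor, was at 12.96 and 4.31 TPM in RD shSCR and shSKP2.2 and at 50.85 and 13.32 TPM in JR1, lower with shSKP2.2 and higher in JR1, as LIF was. These are the closest of 12985 genes over only 4 libraries and are given as a description.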

How the data were processed

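Poly-A selected, directional RNA-seq libraries of RD and JR1 cells were analysed, 1 library per line and condition (4 in all). The authors aligned reads to GRCh38 with STAR 2.7.9a and quantified genes with RSEM 1.3.2. The TPM they deposited have a fixed sum per library and hold no read counts, so the depth, and with it the precision of a low value, is unknown.

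From the deposited TPM a log2 change was computed as log2 of the ratio of TPM + 1. The filter kept genes whose TPM averaged 1 or more over all libraries (12985 of 39323). The limit for a changed gene was 1 on that scale. With 1 library per group no p-value was computed, and the share of all kept genes past the same limit is given as the background. In an alternative scaling, 1053 genes of short structural RNAs (RNA polymerase III transcripts and small nuclear, nucleolar and Cajal body RNAs, by symbol) were removed and the rest rescaled. The other alternatives were centring on the median, 0.1 TPM added in place of 1, other minimum levels and a limit of 1.5-fold.

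The members and the 6 lists of other pathway genes, written from general knowledge, were chosen with earlier results of these data known. From each list the highest and lowest change in each line and the genes past the limit in both lines are named. Some list members are not reported here. For the 3 members with the largest range over the libraries, the 3 genes with the closest centred log2 profile (Euclidean distance) are named. Promoters are the 250 bases before a RefSeq start in GRCh38.p14, found for 9 of the 10 members. The calculation was tested on simulated data. Scripts ran under Python 3.11.15 (numpy 2.4.6, pandas 2.3.3, matplotlib 3.10.9).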

Additional observations from a re-analysis of the deposited data

Results flagged for a closer look

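With 1 library per group no library could be compared with others of its group. The direction of the log2 change with shSKP2.2 differed between the lines for 4 of the genes that had a mean of at least 1 TPM and whose changes are named above, and the difference was not tested for any of them. IL6R was at 0.0435 in RD and -0.49 in JR1, and relative to the median of all genes the directions still differed (0.31 and -0.27). IL31RA was at 0.41 in RD and -0.011 in JR1, but it was at 0.06 and 0.41 TPM in RD, passed the filter through JR1 alone, and went there from 2.95 to 2.92 TPM. STAT5B was at -0.10 in RD and 0.0456 in JR1, and PIAS1 at -0.0119 in RD and 0.46 in JR1. Relative to the median IL31RA (0.68 and 0.20), STAT5B (0.17 and 0.26) and PIAS1 (0.26 and 0.67) were higher in both lines.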

How the results depend on the processing

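No paired analysis was possible because each comparison within a line has 1 library per condition and the labels give no replicate numbers. A fit over both lines with the line as a block was not run, and each line's change is given instead. Of 34 recomputed counts of members, 28 were within 1.5 times the reported count. The setting that kept all genes above 0 TPM leaves the same members and changes, so its counts among these could not differ. Centring on the median left 2 members past the limit in RD (IL6 and IL6ST) in place of 4, where 3.53% of all genes fell. A limit of 1.5-fold gave 7 in RD, where 23.2% fell. A minimum mean of 5 TPM leaves 5 members (LIFR, OSMR, CNTFR, STAT3 and SOCS3), of which 1 passed the limit with shSKP2.2 in RD, 2 in JR1, and 2 between the lines in each condition, against 9.38%, 11.6%, 9.36% and 7.79% of all genes in either direction. In the settings that recompute the change itself, 130 of 140 changes of single members kept their direction and their side of the limit. The calls lost were those of LIF and OSMR in RD on centring, of OSMR in RD without short structural RNAs (-0.67), and of OSMR in RD with 0.1 TPM added and centring (-0.79), a combination chosen after seeing the data. The depth of the libraries is unknown, so the precision of values below 1 TPM, such as IL6 with shSKP2.2 and CNTFR in JR1, cannot be given.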
